A study of Mus musculus with 20 samples.

Results

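The 10 genes described here encode chaperones, disulfide isomerases and regulators of the endoplasmic reticulum (ER), the compartment where secreted and membrane proteins are folded. They are Hspa5, Hsp90b1, Dnajb9, Sdf2l1, Pdia4, Pdia6, Herpud1, Xbp1, Creld2 and Manf, picked by gene name from a table of 54532 genes, and each name matched 1 row. RNA had been sequenced from mouse articular chondrocytes, the cells that build joint cartilage, taken from animals of 6 weeks of age and treated for 48 hours in culture. The groups were 20 µM 25-hydroxycholesterol (25HC), 20 µM of its sulfated form 25-hydroxycholesterol-3-sulfate (25HC3S), 2 µM GW3965 and DMSO alone (Vehicle), with 5 libraries per group and 20 together. Oxysterols such as 25HC are natural ligands of the liver X receptors, which are nuclear receptors, and GW3965 is a synthetic one. No label ties the libraries to separate animals or cultures, so p-values measure the spread between libraries, which may be technical, and neither strain nor sex is named.

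Proteins that misfold in the ER lumen draw the chaperone BiP, the product of Hspa5, away from the sensors IRE1, PERK and ATF6, which sets off the unfolded protein response. IRE1 splices the Xbp1 transcript, ATF6 is released as a transcription factor, and PERK slows translation while favouring that of ATF4. XBP1 and ATF6 then induce chaperones, folding enzymes and the machinery that removes misfolded proteins. Chondrocytes secrete large amounts of collagen and proteoglycan and have a high load of folding.

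A known mark of these genes is the ER stress response element (ERSE), made of CCAAT, any 9 bases and then CCACG, which ATF6 binds together with the factor NF-Y. Both strands of RefSeq promoters (build GRCm38.p6, 250 bases before to 50 after the start of the gene) were searched, and 9 of the 10 genes had an entry, all except Manf. The Pdia4 window, chr6:47813463-47813762, lies wholly before the gene's start in GENCODE M21 at 47813430, so bases next to that start were not searched. ERSE was in 4 of the 9 genes with an entry, namely Hspa5, Hsp90b1, Pdia6 and Creld2, against 0.119% of the 32851 promoters in the table. The shorter ERSE-II, made of ATTGG, any base and CCACG, was in the promoter of Herpud1 and in 0.0365% of all promoters. Since such elements are a known mark of genes of this response, the counts describe the members and are no independent support for their choice. The matches are shown with 5 bases on each side, with the motif's fixed letters in capitals, because 5 of the 9 genes with an entry hold such an element.
Hspa5: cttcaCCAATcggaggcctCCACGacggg
Hsp90b1, farther: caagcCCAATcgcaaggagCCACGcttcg
Hsp90b1, nearer: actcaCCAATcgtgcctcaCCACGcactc
Pdia6: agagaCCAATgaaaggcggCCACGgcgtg
Creld2: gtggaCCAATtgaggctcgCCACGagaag
Herpud1, ERSE-II: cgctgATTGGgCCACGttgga
The Hspa5 window is chr2:34772020-34772048 on the plus strand, its motif begins 65 bases before the RefSeq start, and in GENCODE M21 it lies in an untranslated exon of another Hspa5 transcript. The Hsp90b1 windows are chr10:86705633-86705661 on the minus strand, with the motif 212 bases before the start, and chr10:86705528-86705556, read on the plus strand and so opposite to the gene, with the motif 107 bases before it. The Pdia6 window is chr12:17266486-17266514 on the plus strand, 98 bases before the start, and the Creld2 window is chr15:88819515-88819543, read on the minus strand opposite to the gene, 126 bases before the start. Those of Hsp90b1, Pdia6 and Creld2 lie between annotated genes. The Herpud1 window is chr8:94386372-94386392 on the plus strand, 52 bases before the start, within the antisense gene Gm15890. The core of the XBP1-bound element, TGACGTGG, was in none of the 9 promoters and in 0.676% of all, and the C/EBP-ATF element TGATGNAAT was in none and in 0.965% of all. The letters CCACG, which are also part of ERSE and ERSE-II, were in 8 of the 9 promoters and in 32.8% of all. These are matches of letters and were not measured as bound sites.

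Fragment totals recovered from the table ranged from 14653777 to 19365220 per library. Of the libraries, 4 stood apart from the other 16: Vehicle replicates 2, 3 and 4 and 25HC3S replicate 1 had 237 to 1171 genes at a single fragment, against 1808 to 2057 in the other 16, and mitochondrial shares of 0.369% to 4.065%, against 0.889% to 1.414%. They were set aside as an alternative chosen after seeing the data, and results are given with and without them, which leaves 2 Vehicle libraries. All 12 chondrocyte markers averaged at least 1 FPKM (fragments scaled to gene length and to the library's total), with summed levels of 1818 to 5294, and Col2a1, Acan and Sox9 were present in every library. All 12 macrophage markers did so too, summing to 772.4 to 1097 in 25HC, 409.9 to 794.9 in 25HC3S, 966.6 to 1124 in GW3965 and 467.2 to 1107 FPKM in Vehicle. Of 8 fibroblast markers all averaged at least 1 FPKM, with summed levels of 4052 to 9150, and Col1a1 averaged 2810 FPKM beside 2300 for Col2a1. At least 1 FPKM was also the average of 6 of 7 osteoblast, 3 of 6 skeletal muscle, 1 of 6 endothelial and 1 of 8 plasma and B cell markers. Ms4a1 of that last list was at 0 in every library.

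All 10 genes were expressed well above the filter of 1 FPKM in 5 libraries that left 12752 genes to test. Hspa5 was the most abundant, at 399.9 ± 36.7 FPKM (SD over 20 libraries) and rank 49 among the tested genes. Hsp90b1, which encodes the ER form of HSP90, averaged 222.4 FPKM at rank 116. The disulfide isomerases Pdia4 and Pdia6 averaged 154.7 and 114.4 FPKM. The other 6 were lower, with Herpud1 at 56.5, Xbp1 at 46.8, Manf at 41.9, Creld2 at 40.8, Sdf2l1 at 38.3 and Dnajb9 at 21.5 FPKM, rank 1953. The order of the top 5 and of Sdf2l1 above Dnajb9 at the bottom was the same in the means of all 4 groups, with Manf at rank 7 in each, while Xbp1 and Creld2 exchanged places, Creld2 being the higher in 25HC. Every library had more Hspa5 than any library had Hsp90b1, and every library had more Pdia6 than any had Herpud1. The other neighbours in the order overlapped between libraries.

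**Figure D1:**
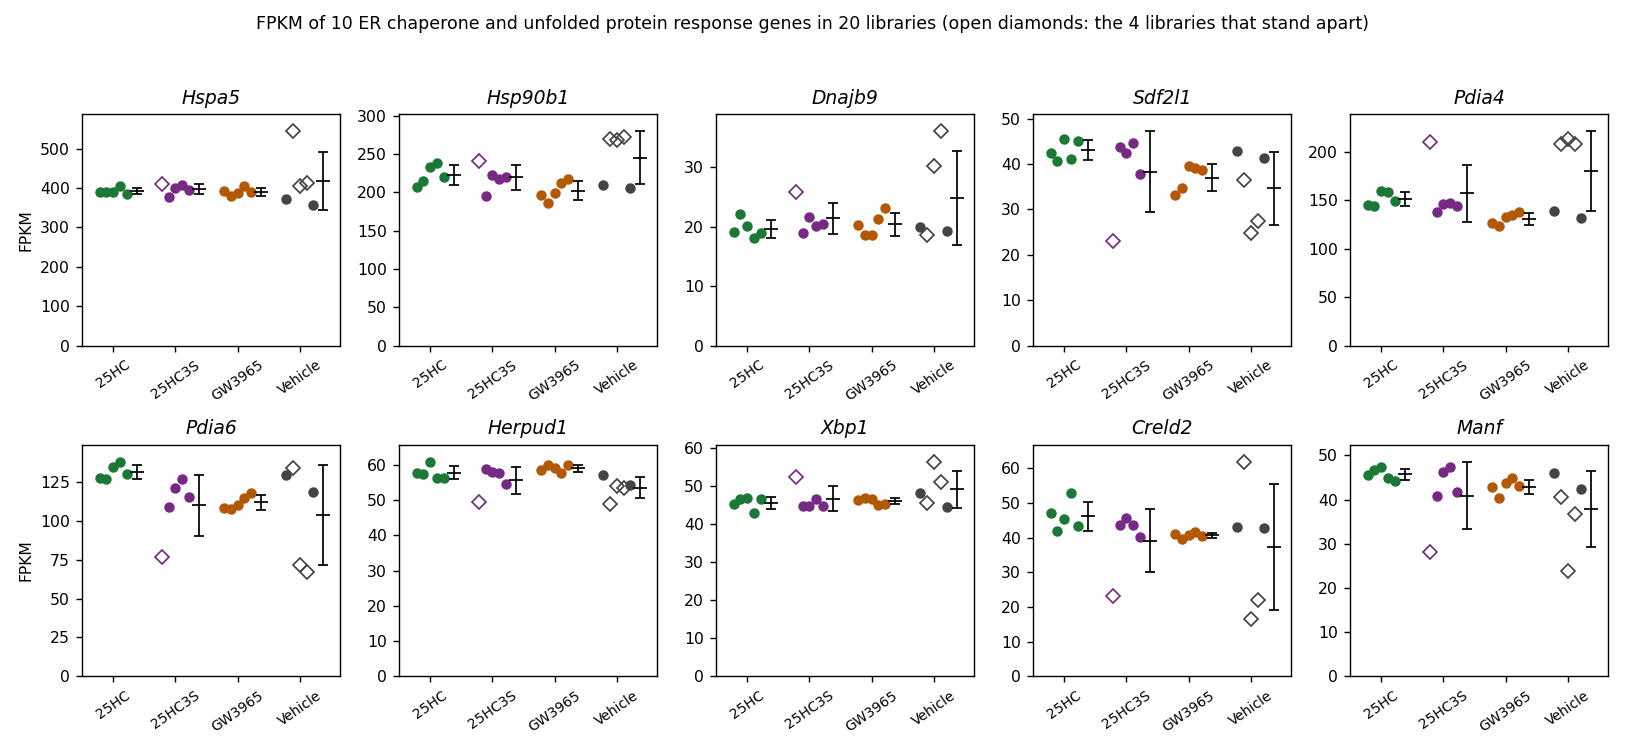
FPKM (vertical axis, from 0) of each of the 10 genes in the 5 libraries of 25HC, 25HC3S, GW3965 and Vehicle. Points are libraries, open diamonds are the 4 libraries that stand apart, and bars are the group mean ± SD. The 25HC and GW3965 points lie close together, while the Vehicle group is spread by its 3 open diamonds, as for Pdia4 at 208 to 213 FPKM against 131 and 138 in its other libraries.

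The 4 libraries were not simply high or low in these genes: they split them. In Vehicle replicates 3 and 4 and in 25HC3S replicate 1, Dnajb9, Pdia4, Hsp90b1, Xbp1 and Hspa5 were each above the mean of the libraries of their group outside the 4. In the same 3 libraries Sdf2l1, Pdia6, Creld2, Manf and Herpud1 were each below it. Creld2, a disulfide isomerase-like protein of the ER lumen, was lower by 0.88 in 25HC3S replicate 1 and by 1.31 and 0.93 in Vehicle replicates 3 and 4 on the log2(FPKM + 1) scale. Pdia4 was higher there, by 0.54 in 25HC3S replicate 1 and by 0.66 and 0.62 in the Vehicle libraries. Vehicle replicate 2 followed another course, with Pdia4 higher by 0.62, Hspa5 by 0.57 and Creld2 by 0.52. Across 12742 genes, such deviations correlated with the GC content of the transcript, with Pearson's r of -0.46 in 25HC3S replicate 1, -0.51 in Vehicle replicates 3 and 4 each and -0.14 in Vehicle replicate 2. With log2 gene length r was 0.22 in 25HC3S replicate 1, 0.26 and 0.25 in Vehicle replicates 3 and 4 and 0.14 in Vehicle replicate 2. Among the members, GC content ranged from 40.6% in Dnajb9 to 56.7% in Sdf2l1, and gene length from 1108 bases in Sdf2l1 to 4229 in Hspa5. Part of the spread described below moves with these libraries, and the part of GC content, gene length or RNA quality in it was not tested.

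**Figure D2:**
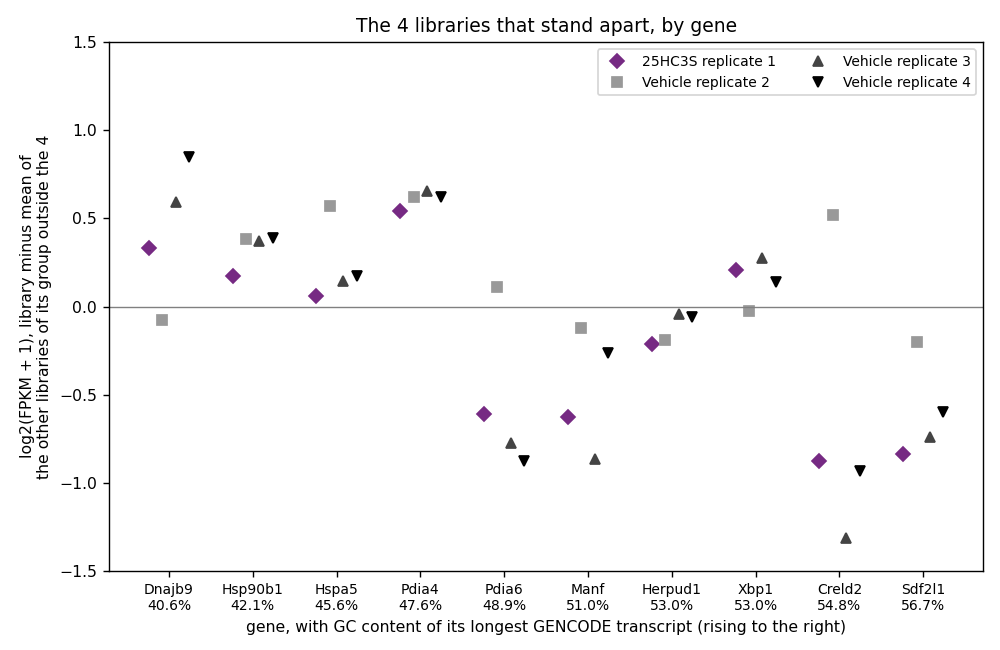
Deviation of each of the 4 libraries from the mean of the other libraries of its group outside the 4 (log2(FPKM + 1), vertical axis) for the 10 genes, ordered along the horizontal axis by GC content. In 25HC3S replicate 1 and Vehicle replicates 3 and 4 the 4 genes of lowest GC content lie above 0 and the others below, Xbp1 excepted, and Vehicle replicate 2 differs from them, with Creld2 at 0.52.

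Against Vehicle, none of the 10 genes passed the test (limma, adjusted p under 0.05 over 12752 genes) in any treatment. In 25HC, 0 of 10 were called where 0.0392% of all tested genes were, 1 of the 10 had an unadjusted p under 0.05, where 30.3% of all genes did, and differences ran from -0.27 for Dnajb9 to 0.44 for Creld2. In 25HC3S, 0 of 10 were called against 1.61% of all genes, none had an unadjusted p under 0.05, where 17.1% did, and differences ran from -0.18 to 0.18. In GW3965, 0 of 10 were called against 6.46% of all genes, 3 had an unadjusted p under 0.05, where 31.9% did, and differences ran from -0.42 for Pdia4 to 0.27 for Creld2. The medians over the 10 were 0.02 for 25HC, 0.00 for 25HC3S and 0.02 for GW3965, beside 0.03, 0.02 and 0.02 over all tested genes. Without the 4 libraries none was called either, where 0.0235% of all genes were called for 25HC, 3.95% for 25HC3S and 7.77% for GW3965, and 2, 1 and 4 of the 10 had an unadjusted p under 0.05, as did 5.65%, 17.6% and 19.6% of all genes. These comparisons share the Vehicle libraries. In bulk RNA, fewer cells of a type and less RNA per cell cannot be told apart.

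Hspa5, among the chaperones, measured 391, 391, 389, 406 and 384 FPKM in 25HC, 411, 377, 399, 407 and 396 in 25HC3S, and 391, 379, 388, 406 and 389.5 in GW3965, against 374, 544, 405, 413 and 358 in Vehicle. The treated groups spanned a narrow band, and the Vehicle group overlapped them with 1 library far above. The differences from Vehicle were -0.08 ± 0.08 (SE) for 25HC, -0.06 ± 0.08 for 25HC3S and -0.08 ± 0.08 for GW3965. Without the 4 libraries they were 0.10, 0.11 and 0.10, of the opposite sign, with adjusted p of 0.816, 0.12 and 0.138 (limma), and every treated library then lay above both Vehicle libraries, as did 5.7% of all genes for 25HC, 15.1% for 25HC3S and 13.0% for GW3965. The intervals of 95% in that fit ran up to 0.18 for 25HC, 0.19 for 25HC3S and 0.17 for GW3965. Against the same 2 Vehicle libraries, Pdia4 was also higher in every 25HC library. In every GW3965 library Herpud1 was higher and Sdf2l1, Pdia6 and Creld2 were lower, as 11.1% of all genes were, and none of these genes passed the test.

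Hsp90b1 measured 196, 186, 199, 212 and 218 FPKM in GW3965, against 209, 270.3, 269, 272 and 206 in Vehicle. The 3 high Vehicle libraries are those that stand apart, and the groups overlapped. The difference was -0.27 ± 0.09 (limma adjusted p = 0.0687) with all libraries and -0.04 ± 0.06 without the 4 (adjusted p = 0.818). Dnajb9, which encodes the BiP cochaperone ERdj4, ranged from 18.0 to 22.1 FPKM in 25HC, 18.9 to 25.8 in 25HC3S, 18.6 to 23.1 in GW3965 and 18.6 to 36.0 in Vehicle. Its differences from Vehicle, -0.27, -0.16 and -0.22, became -0.00, 0.05 and 0.05 without the 4 libraries.

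Pdia4, a disulfide isomerase of the lumen, measured 145, 143, 159.5, 158 and 149 FPKM in 25HC, 209, 138, 146, 147 and 144 in 25HC3S, and 126, 123, 133, 135 and 138 in GW3965, against 138.5, 208, 213, 208 and 131 in Vehicle. GW3965 had the lowest mean, and the single high 25HC3S library and the 3 high Vehicle libraries are the 4 that stand apart. The GW3965 difference from Vehicle was -0.42 ± 0.13 (limma adjusted p = 0.0606) and was called without Vehicle replicate 1, at -0.51 (adjusted p = 0.0159), or without Vehicle replicate 5, at -0.53 (adjusted p = 0.0115). Those are the 2 Vehicle libraries that do not stand apart. Of all 12752 tested genes, 3247 were called without replicate 1 and 2998 without replicate 5, against 824 with all libraries. Hsp90b1 was called lower in the same 2 fits, with adjusted p of 0.0189 and 0.0171, and Herpud1 was called higher without Vehicle replicate 1 (adjusted p = 0.0492). With the 4 libraries left out Pdia4 differed by -0.04 ± 0.05 (adjusted p = 0.721).

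Herpud1 encodes a membrane protein that links the ER to the degradation of misfolded proteins. It measured 58.5, 60.1, 59.1, 57.6 and 60.0 FPKM in GW3965, against 57.1, 48.8, 54.1, 53.5 and 54.3 in Vehicle. Every GW3965 library was above every Vehicle library, as was so of 3.79% of all tested genes, and 7.07% did not overlap in either direction. The difference was 0.14 ± 0.06 (limma adjusted p = 0.113) with all libraries and 0.08 ± 0.04 (adjusted p = 0.233) without the 4, so it did not pass. None of the other members was separated from Vehicle in this way by any treatment when all libraries were used, where 2.33% of all genes were for 25HC and 2.16% for 25HC3S.

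Xbp1 encodes the transcription factor of the IRE1 branch, and FPKM of the gene as a whole does not separate its spliced and unspliced transcripts. It averaged 45.6 ± 1.64 FPKM in 25HC, 46.6 ± 3.33 in 25HC3S, 46.0 ± 0.85 in GW3965 and 49.1 ± 4.76 in Vehicle (SD, n = 5 each). Manf, a secreted factor released under ER stress, ranged from 44.1 to 47.3 FPKM in 25HC, 28.2 to 47.5 in 25HC3S, 40.4 to 44.8 in GW3965 and 23.8 to 46.1 in Vehicle. Neither gene passed the test in any treatment.

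**Figure D3:**
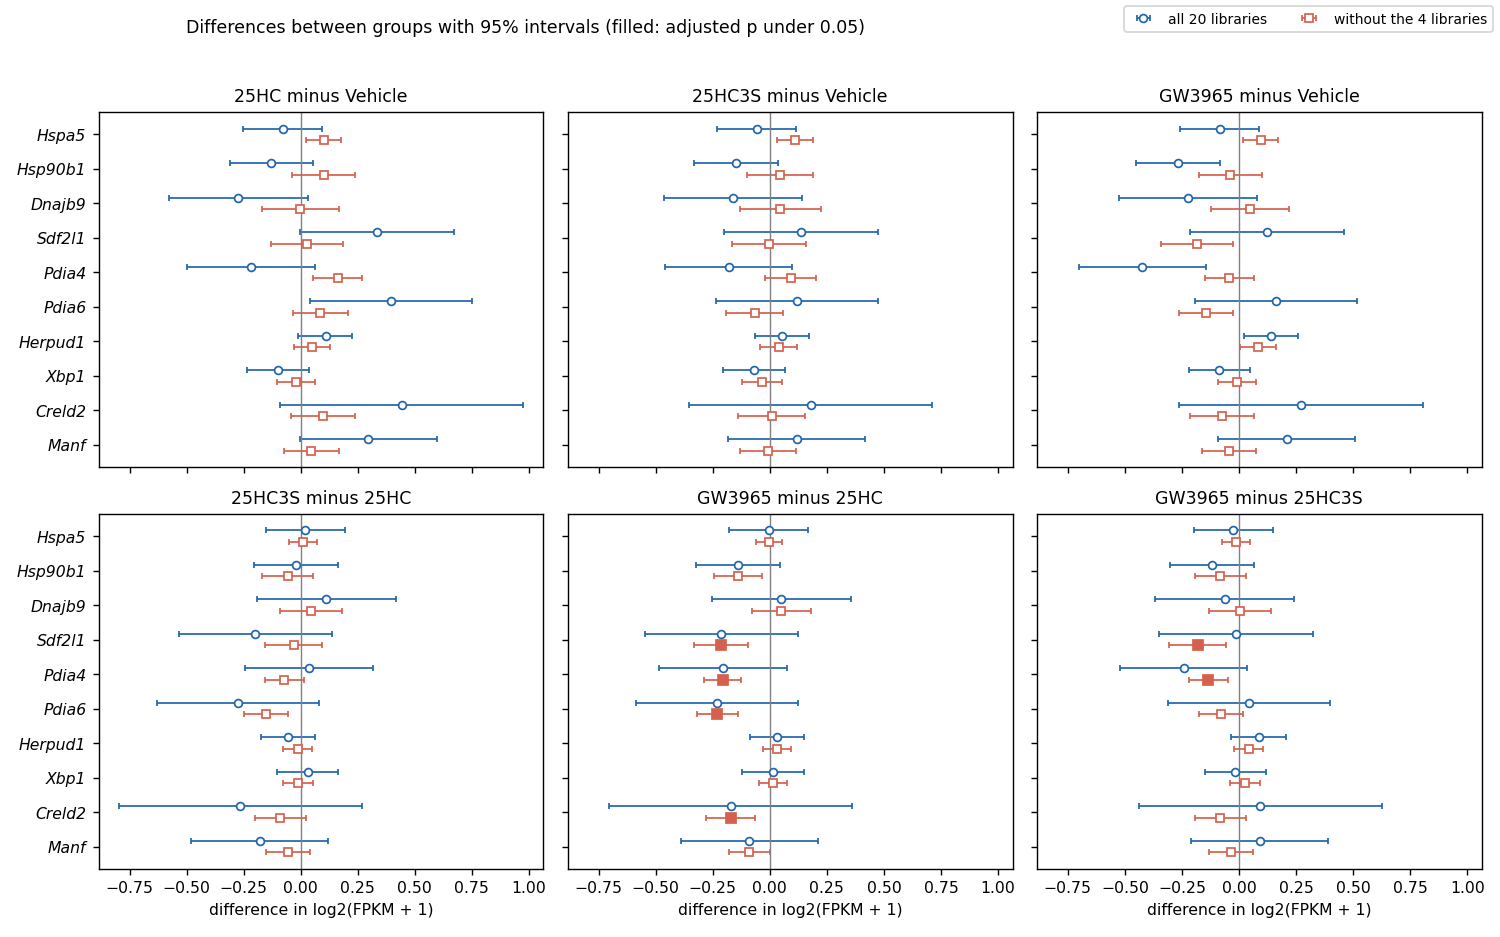
Differences in log2(FPKM + 1) between groups (horizontal axis) for the 10 genes in the 6 comparisons, with intervals of 95%, for the fit on all 20 libraries (circles) and without the 4 libraries that stand apart (squares). Filled marks passed at adjusted p under 0.05: no circle is filled, and filled squares are Sdf2l1, Pdia4, Pdia6 and Creld2 in GW3965 minus 25HC, and Sdf2l1 and Pdia4 in GW3965 minus 25HC3S.

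25HC3S and 25HC differ by a sulfate group and were given at the same dose for the same time, so they can be set against each other directly. None of the 10 genes passed (limma), where 0.816% of all tested genes did, and none had an unadjusted p under 0.05, where 7.12% did. Differences of 25HC3S minus 25HC ran from -0.28 for Pdia6 to 0.11 for Dnajb9. No member was separated between the groups, where 7.29% of all tested genes were. The intervals were widest for Creld2, from -0.80 to 0.27, and narrowest for Herpud1, from -0.17 to 0.06. Without the 4 libraries, where 7.18% of genes were called, Pdia6 was the nearest to the threshold, at -0.15 ± 0.04 (adjusted p = 0.0536), and the other 9 differed by -0.09 to 0.05. Pdia6 measured 76.9, 109, 121, 127 and 116 FPKM in 25HC3S, against 127.5, 127, 135, 138 and 130.0 in 25HC. The groups overlapped by 1 library of 25HC3S, and its lowest library was replicate 1.

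GW3965 and 25HC had smaller SDs than the other groups in each of the 10 genes, and none of the 4 libraries is among them, though their doses differ, 2 µM and 20 µM, so these are differences between the cultures as treated. In all 5 GW3965 libraries Pdia4, Pdia6, Sdf2l1 and Creld2 were below all 5 of 25HC. Such a separation downward was found for 5.72% of all tested genes, and 11.1% were separated in either direction. With all 20 libraries in the fit none of the 10 genes was called (limma), where 1.74% of all genes were, and none had an unadjusted p under 0.05, where 7.5% did. Without the 4 libraries the differences of the members were the same and their errors smaller, and these 4 genes were called lower in GW3965, where 6.82% of all genes were called lower and 13.1% in either direction. When only the 2 groups were fitted, Pdia4, Pdia6 and Sdf2l1 were called lower, where 5.87% of all genes were, and Creld2 was not (adjusted p = 0.0612). With library weights the same 3 were called, where 6.98% of all genes were called lower.

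Pdia6, another lumenal disulfide isomerase and a regulator of the sensors, measured 108, 108, 110.1, 115 and 118 FPKM in GW3965, against 127.5, 127, 135, 138 and 130.0 in 25HC. Its means were 111.9 ± 4.56 and 131.5 ± 4.77 FPKM (SD, n = 5 each), and the highest GW3965 library lay below the lowest of 25HC. The difference was -0.23 ± 0.17 with all 20 libraries and -0.23 ± 0.04 without the 4 (limma adjusted p = 0.00164). Pdia4 averaged 130.9 ± 6.12 FPKM in GW3965 and 151.2 ± 7.40 in 25HC, a difference of -0.21 ± 0.04 without the 4 (adjusted p = 0.00172). Both genes stayed called when each of the 10 libraries of these groups was left out in turn, with adjusted p of at most 0.00583 for Pdia6 and 0.00623 for Pdia4.

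Sdf2l1 encodes a lumenal partner of the ERdj cochaperones. It measured 33.2, 34.7, 39.7, 39.1 and 38.7 FPKM in GW3965, against 42.5, 40.7, 45.6, 41.2 and 45.1 in 25HC. The groups did not overlap, by a margin of about 1 FPKM. The difference was -0.21 ± 0.06 (limma adjusted p = 0.0187) without the 4, and it was called in 8 of the 10 fits that left out 1 library. Sdf2l1 rests on 399 to 994 fragments per library over all 20, with 670 the fewest in these 2 groups, against 25578 to 33632 for Hspa5. Creld2 measured 41.2, 39.7, 40.6, 41.7 and 40.3 FPKM in GW3965, against 47.0, 42.1, 45.3, 52.9 and 43.3 in 25HC. The difference of Creld2 was -0.17 ± 0.05 (adjusted p = 0.0333), and it was called in only 3 of those 10 fits, with adjusted p up to 0.0738 without 25HC replicate 1. Hsp90b1, which did not pass (-0.14 ± 0.05, adjusted p = 0.0803), was called in 2 of them.

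The members were not all lower in GW3965 than in 25HC. Hspa5 differed by -0.00 ± 0.03 (interval -0.06 to 0.05), Xbp1 by 0.02 ± 0.03 and Herpud1 by 0.03 ± 0.03 without the 4 libraries, with adjusted p of 0.942, 0.816 and 0.546 (limma). Dnajb9 differed by 0.05 and Manf by -0.09. Of the 10 genes, 7 were lower and 3 higher, with a median of -0.11 beside 0.01 over all genes. Of the 7 lists of cell type markers, the osteoblast list was separated between these groups in the direction of the called members, with sums of 927.7 to 969.3 FPKM in GW3965 and 1048 to 1154 in 25HC. Of its 7 genes, 6 averaged at least 1 FPKM over the 20 libraries, Dmp1 averaged 0.0788, and Spp1 averaged 850.0 and so made most of the sum. The sums of the other 6 lists overlapped, among them macrophage markers at 966.6 to 1124 FPKM in GW3965 and 772.4 to 1097 in 25HC. The part of these cells in the differences was not tested.

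Between GW3965 and 25HC3S, none of the 10 genes was called with all libraries (limma), where 4.63% of all genes were, and none had an unadjusted p under 0.05, where 12.6% did. Pdia4 was lower in all 5 GW3965 libraries than in all 5 of 25HC3S, as were 5.85% of all tested genes, and 12.2% were separated in either direction. Without the 4 libraries, Pdia4 and Sdf2l1 were called lower in GW3965, at -0.14 ± 0.04 (adjusted p = 0.0300) and -0.18 ± 0.06 (adjusted p = 0.0449), where 8.59% of all genes were called lower and 17.9% in either direction. Sdf2l1 measured 23.1, 43.8, 42.4, 44.6 and 37.7 FPKM in 25HC3S, so the GW3965 range of 33.2 to 39.7 overlapped it. The sign of its difference without the 4 libraries is that of the comparison with 25HC, while Pdia6 differed by -0.08 ± 0.05 (adjusted p = 0.278). The other 7 differed by -0.08 for Hsp90b1 to 0.04 for Herpud1, with Hspa5 at -0.01. Each of the calls was kept in 4 of the 9 fits that left out 1 further library of these groups, with adjusted p up to 0.0821 for Pdia4 and 0.13 for Sdf2l1, both without 25HC3S replicate 4. Summed markers were separated in 3 lists, with macrophage markers at 966.6 to 1124 FPKM in GW3965 and 409.9 to 794.9 in 25HC3S, chondrocyte markers at 4020 to 4960 and 2518 to 3839, and skeletal muscle markers at 6.4 to 10.15 and 3.99 to 5.242, and their part was not tested. The comparisons with 25HC and 25HC3S share the GW3965 libraries.

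Around the members, 108 genes of the ER and of neighbouring stress pathways were examined in 8 lists, of which 105 were tested. With all libraries, 9 of them were called higher and 1 lower in GW3965 against Vehicle (limma, adjusted p under 0.05). Of all genes, 3.49% were called higher there and 6.46% in either direction. In GW3965 against 25HC3S, 1 was called higher (Atf3) and 1 lower (Mlec, a lectin of the glycoprotein folding pathway), where 4.63% of all genes were called. The largest group was the PERK and ATF4 arm, where 5 of 12 genes were higher in GW3965 than in Vehicle: Nupr1 by 1.18 ± 0.35, Ppp1r15a, whose product reverses the PERK signal, by 1.17 ± 0.29, Atf3 by 0.94 ± 0.19, Atf4 by 0.65 ± 0.16 and Sesn2 by 0.30 ± 0.07. The median of this list was 0.81, beside 0.02 over all genes. When the 4 libraries were left out Nupr1 differed by 0.35, Ppp1r15a by 0.40, Atf3 by 0.66 and Atf4 by 0.32, all still called, and Sesn2 by 0.16, no longer called. Ddit3, which encodes the stress factor CHOP, differed by 0.97 ± 0.30 and did not pass (adjusted p = 0.0578). The name Ddit3 matched more than 1 row, of which 1 passed the filter and was tested. Of the 8 sensors none was called and 1 had an unadjusted p under 0.05, which was Atf6b, the relative of Atf6, at 0.70 ± 0.27 (adjusted p = 0.0989) with all libraries and -0.03 without the 4. Ern1, the gene of IRE1, differed by 0.14, Eif2ak3, that of PERK, by 0.21 and Atf6 by -0.18.

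Of the other lists in that comparison, Serpinh1, the collagen chaperone HSP47, was higher by 0.53 ± 0.15 and was the 1 gene called of 14 for collagen folding, and without the 4 libraries it was higher by 0.14. Bag3 (0.45) and Hspb8 (0.31), of 12 cytosolic heat shock genes, and Dnaja3 (0.54), of 7 mitochondrial ones, were higher, and Dnajc10 (-0.39), of 19 other ER chaperones and folding enzymes, was lower. None of these 4 was called without the 4 libraries, where they differed by 0.05, 0.17, 0.19 and -0.06. No gene was called in the lists of ER-associated degradation and of translocation and export, where 5 of 15 and 6 of 18 had an unadjusted p under 0.05, beside 31.9% of all genes. When the 4 libraries were left out, 13 list genes were called higher and none lower in this comparison, where 3.98% of all genes were called higher. Among them were 8 not called with all libraries, namely Asns, Ddit4, Ero1l, P4ha1, Hsph1, Lonp1, Sel1l of ER-associated degradation and Sec23a of ER export. Their differences ran from 0.13 for Sel1l to 0.50 for Ddit4. With all libraries Asns (-0.107), Sel1l (-0.085) and Sec23a (-0.147) differed in the other direction. Hspa8, the constitutive cytosolic relative of BiP, was not called in any comparison. Against Vehicle with all libraries no list gene was called in 25HC or 25HC3S, where 50 and 25 of 105 had an unadjusted p under 0.05, beside 30.3% and 17.1% of all genes. Those counts are 14 and 25 in the fit without the 4, beside 5.65% and 17.6% of all genes. There 25HC again had no call, where 0.0235% of all genes were called. In 25HC3S 6 list genes were called higher, among them Ero1l (0.25), Mlec (0.23) and Atf4 (0.19), where 169 of 12752 genes were. Between 25HC3S and 25HC no list gene was called with all libraries, and 3 had an unadjusted p under 0.05, beside 7.12% of all genes. Without the 4 the calls were Ero1l (0.17) and Mlec (0.12) higher and Fkbp2 (-0.30) and Atf3 (-0.27) lower. Of all 12752 genes, 317 were called higher and 599 lower in that fit.

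Between GW3965 and 25HC no gene of the 8 lists was called with all libraries (limma), and 4 of 105 had an unadjusted p under 0.05, beside 7.5% of all genes. In the fit without the 4 libraries 14 of 105 were called higher and 13 lower, where 6.3% of all genes were called higher and 6.82% lower. The 19 other ER chaperones and folding enzymes held 8 lower and 1 higher, with a median of -0.10 beside 0.01 over all genes. Among those called lower in GW3965 were Cnpy2 at -0.20 ± 0.05, Pdia3 at -0.17 ± 0.04, Nucb2 at -0.17 ± 0.04 and Hyou1, the nucleotide exchange factor of BiP, at -0.10 ± 0.03. Pdia3, a disulfide isomerase for glycoproteins, averaged 262.2 ± 11.5 FPKM in GW3965 and 295.3 ± 13.9 in 25HC. The 1 gene called higher was Ero1l, the oxidase that recharges disulfide isomerases, by 0.19 ± 0.04. Calr, which encodes calreticulin, differed by -0.13 ± 0.04 (adjusted p = 0.0581) and Dnajc3, a BiP cochaperone, by -0.01 ± 0.03 (adjusted p = 0.887), and neither passed.

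The PERK and ATF4 arm held 7 genes higher and 1 lower of 12 in the same fit, with a median of 0.16. Atf3 was higher in GW3965 than in 25HC by 0.51 ± 0.05, Nupr1 by 0.47 ± 0.05, Ppp1r15a by 0.28 ± 0.06, Ddit4 by 0.27 ± 0.06 and Atf4 by 0.20 ± 0.03 (limma adjusted p of 0.00623 or less). Atf4 averaged 139.3 ± 3.97 FPKM in GW3965 and 121.2 ± 3.57 in 25HC. Its groups did not overlap, as was so upward for 5.4% of all tested genes and in either direction for 11.1%. The 1 gene called lower was Cebpb, at -0.16 ± 0.05. In GW3965 minus 25HC3S, which shares the GW3965 libraries, the arm likewise held 7 higher and 1 lower without the 4 libraries, with a median of 0.165. Over all lists 15 genes were called higher and 10 lower there, where 9.27% of all genes were called higher and 8.59% lower. Of the remaining lists in GW3965 minus 25HC without the 4, 1 of 8 sensors (Mbtps2) and 1 of 15 genes of ER-associated degradation (Ubxn4) were called higher. Called lower in GW3965 minus 25HC were 2 of 18 for translocation and export (Sec61a1 and Ssr1) and 2 of 14 for collagen folding (Crtap and P3h3). Called higher there were also 3 of 12 cytosolic heat shock genes (Hspb1, Hspb8 and Hsph1) and 1 of 7 mitochondrial ones (Lonp1).

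**Figure D4:**
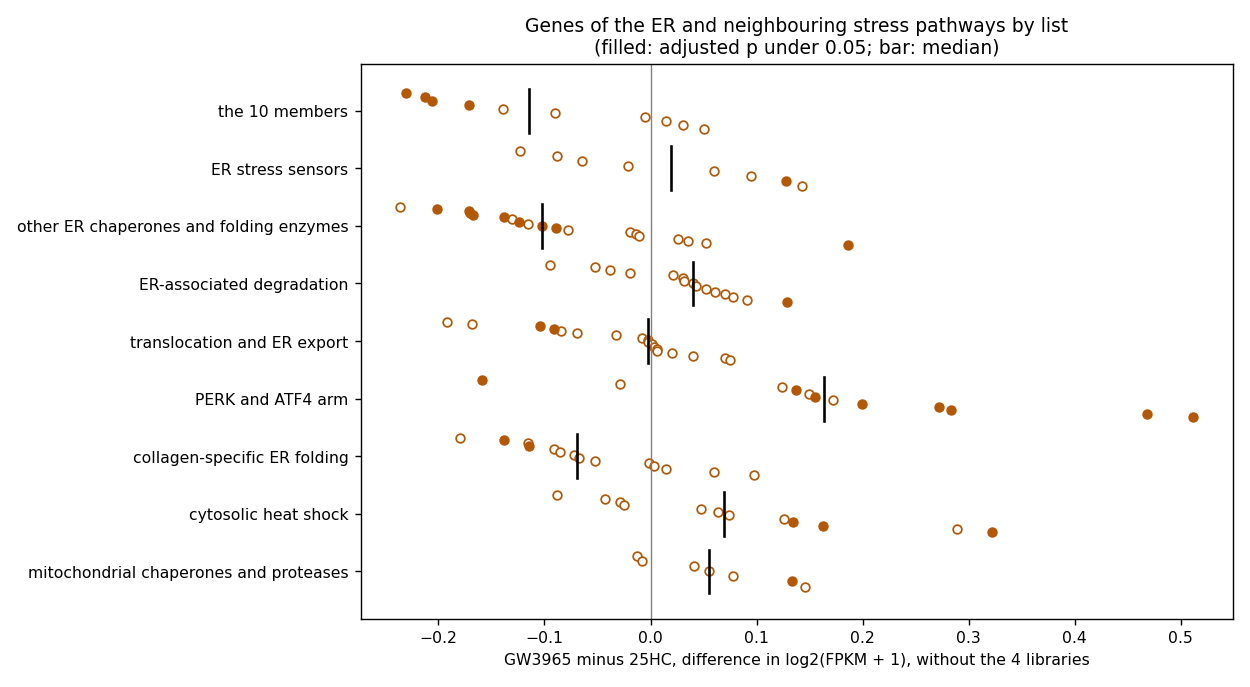
Difference in log2(FPKM + 1) of GW3965 minus 25HC without the 4 libraries (horizontal axis) for the tested genes of each list, 1 point per gene, filled where adjusted p was under 0.05, with the median as a bar. The members (median -0.11) and the other ER chaperones (median -0.10) lie mostly left of 0, and the PERK and ATF4 arm (median 0.16) mostly right, with Atf3 at 0.51.

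The members did not vary as 1 block. Over all 20 libraries the 45 pairs of members had Pearson's r from -0.91 to 0.94 with a median of -0.17, and 21 were positive. Over the 16 libraries left without the 4, r ran from -0.51 to 0.89 with a median of 0.23, and 30 of the 45 were positive. The closest pair there was Hsp90b1 and Pdia4 (r = 0.89). Outside the members, the genes most like the members' mean pattern over the 20 libraries were Gm7332 (r = 0.83), Rilpl2 (0.77), Khdrbs1 (0.77), Pdia3 (0.76), Galnt12 (0.74), Rexo2 (0.73), Tma7 (0.72) and Gem (0.72). Over the 16 libraries they were led by Calr (0.81), Cnpy2 (0.78) and Pdia3 (0.78). These values are descriptions, since the points share treatment, depth and library quality. Some members share exon bases with neighbours, among them Hsp90b1 with 1810014B01Rik on the opposite strand (415 bases) and Manf with 4930524O07Rik (166) and Dcaf1 (146), also on the opposite strand. Whether strand was used in counting is not given in the sources used here, so reads over those bases are uncertain. Among overlaps on the same strand, Hsp90b1 shares 133 bases with Gm25745 and 84 with Gm15344, and Manf shares 14 with Rbm15b. Counting by strand would not separate these.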

How the data were processed

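The authors deposited 1 table of FPKM for 54532 genes in 20 libraries, with gene lengths and coordinates. CASAVA 1.8 and HISAT2 2.0.5 are named, per the submitters' processing notes. Which program counted fragments, whether by strand, and on which build is not stated in the sources used here. Coordinates of the 10 genes match GENCODE M21, which is on GRCm38. FPKM multiplied by gene length gave whole fragments (within 0.02) for 100% of values. FPKM corrects for length and depth but not for GC content, and it is relative, so a change in a few abundant genes moves all others.

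log2(FPKM + 1) of genes with at least 1 FPKM in at least 5 libraries was fitted with limma 3.58.1 in R 4.3.3 with 1 mean per group, over all 20 libraries and with a trended prior. Fold changes on this scale understate changes of low genes. P-values are two-sided and adjusted by Benjamini-Hochberg over 12752 genes within each of 6 comparisons, with 0.05 as the threshold. The steps were tested on simulated data. Alternatives were a pseudocount of 0.1, no filter, a stricter filter, median ratio scaling, only the 2 groups compared, library weights, a replicate block, and leaving out libraries. No 2 libraries of a group agreed within sampling noise (chi-square per gene 2.62 to 172).

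The members and the lists were chosen with earlier results of these data known. All 10 members are counted and plotted in every comparison, with values in the text for some; of other lists, up to 4 called genes with the largest difference and 10 set genes, plus the 8 genes most like the members over 20 libraries. Others are named where a count was 5 or fewer or as members' neighbours in function, after their values were seen. Hm13 is listed under no such name in the table, and Ero1a and Ero1b were found as Ero1l and Ero1lb. Protein sequences were not analysed here.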

Additional observations from a re-analysis of the deposited data

Results flagged for a closer look

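Of 40 sets of 5 libraries (10 genes in 4 groups), 3 held a library farther from the others than Dixon's 95% limit allows, all in 25HC3S replicate 1. Chance alone flags about 1 in 20 such sets. Pdia4 was at 209.4 FPKM there, with the nearest other 25HC3S library at 147.4. Xbp1 was at 52.39 FPKM, with the nearest at 46.58. Creld2 was at 23.07 FPKM, with the nearest at 40.05. This is 1 of the 4 libraries that stand apart. In Vehicle, where 3 of 5 libraries stand apart, no member was flagged.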

How the results depend on the processing

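A pseudocount of 0.1, no filter on low values, a stricter filter, median ratio scaling and the replicate block left 0 of the 10 members called in every comparison and turned no direction. Whether the replicate numbers pair the libraries could not be decided. Deviations from the group means had r of -0.702 to 0.27 in 30 same-numbered pairs, 4 of them over 0.1. In differently numbered pairs r ran from -0.675 to 0.632, and all these extremes involve libraries that stand apart. With the replicate block the count of called genes over all genes moved from 5 to 1 in 25HC and from 824 to 544 in GW3965 against Vehicle. In GW3965 minus 25HC, 3 members were called with only the 2 groups compared, 3 with library weights and 4 without the 4 libraries, and in GW3965 minus 25HC3S 2 without the 4, where dropping libraries of wide spread lowers the errors by construction. All genes called without the 4, against with them, numbered 1674 against 222 and 2278 against 591. Leaving out 1 library gave 0 to 3 called members in GW3965 minus Vehicle, 2 to 4 in GW3965 minus 25HC without the 4, 0 to 2 in GW3965 minus 25HC3S without the 4, and 0 in the other comparisons with all libraries; without the 4 it was not run for the rest. In GW3965 minus Vehicle the 3 came without Vehicle replicate 1, where 3247 of all 12752 genes were called. In GW3965 minus 25HC the 2 came without 25HC replicate 3 and without GW3965 replicate 2, and in GW3965 minus 25HC3S the 0 came without 25HC3S replicates 3 and 4 and GW3965 replicates 1 and 2.

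Directions of uncalled members turned when the 4 libraries counted less, and no cause was tested beyond that. In 25HC minus Vehicle, with library weights and without the 4 libraries, Hspa5 was 0.080 and 0.10, Hsp90b1 0.081 and 0.10, and Pdia4 0.138 and 0.162. In 25HC3S minus Vehicle, Hspa5 was 0.092 and 0.109, Hsp90b1 0.026 and 0.044, Dnajb9 0.046 in both, Pdia4 0.071 and 0.091, and Pdia6 -0.047 and -0.067, while without the 4 Sdf2l1 was -0.004 and Manf -0.008. In GW3965 minus Vehicle, Hspa5 was 0.078 and 0.095, Dnajb9 0.031 and 0.050, Sdf2l1 -0.164 and -0.186, Pdia6 -0.123 and -0.145, Creld2 -0.069 and -0.074, Manf -0.016 and -0.043, and Xbp1 0.002 with weights. In 25HC3S minus 25HC, Pdia4 was -0.067 and -0.071, and Xbp1 -0.014 and -0.012. In GW3965 minus 25HC3S, Pdia6 was -0.075 and -0.078, Xbp1 0.026 in both, Creld2 -0.078 and -0.082, Manf -0.031 and -0.035, and Dnajb9 0.004 without the 4. Leaving out 1 library, ranges that cross 0 were -0.131 to 0.019 for Hspa5 in 25HC minus Vehicle, and in 25HC3S minus Vehicle -0.110 to 0.041 for Hspa5, -0.023 to 0.242 for Pdia6, -0.064 to 0.394 for Creld2 and -0.036 to 0.243 for Manf. They were -0.136 to 0.015 for Hspa5 in GW3965 minus Vehicle, and -0.056 to 0.019 for Hsp90b1, -0.071 to 0.078 for Pdia4 and -0.012 to 0.045 for Xbp1 in 25HC3S minus 25HC. In GW3965 minus 25HC they were -0.018 to 0.008 for Hspa5 and -0.007 to 0.024 for Xbp1, and in GW3965 minus 25HC3S -0.107 to 0.004 for Dnajb9, -0.181 to 0.048 for Sdf2l1, -0.078 to 0.102 for Pdia6, -0.030 to 0.026 for Xbp1, -0.082 to 0.156 for Creld2 and -0.035 to 0.148 for Manf. Mean Vehicle levels without the 4 libraries were 207.4 FPKM for Hsp90b1 and 134.9 for Pdia4. The motif counts were the same in the bases before the start alone, except 7 promoters with CCACG. Fragment counts were lowest for Sdf2l1, Creld2 and Dnajb9, so depth limits these members most. Their minima were 399 in 25HC3S replicate 1, 340 in Vehicle replicate 3 and 682 in Vehicle replicate 2, all libraries that stand apart. After the 4 libraries go Vehicle has 2.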
